A study of Homo sapiens with 6 samples.

Results

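MYCN, MYCNOS, DDX1 and NBAS lie side by side on the short arm of chromosome 2, in band 2p24, the region that is amplified in many aggressive neuroblastomas. The 4 genes were chosen by name and position, with earlier results of these data known, out of 58302 Ensembl genes measured in each sample. The data are RNA-seq of SK-N-BE(2), a human neuroblastoma cell line known to carry extra copies of MYCN, in 3 samples transfected with the control small interfering RNA (siNC, replicates 1 to 3) and 3 transfected with a small interfering RNA against Prp19 (siPrp19, replicates 1 to 3). Prp19, encoded by PRPF19, is an E3 ubiquitin ligase that activates the spliceosome. The labels give 72 h of transfection for all samples, whereas the study's methods give a shorter time. All 6 samples come from the same cell line. The study's methods call the replicates biological without saying whether they were separate cultures, and the p-values measure only the spread between these samples. DNA copy number was not measured here.

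MYCN encodes N-Myc, a transcription factor of the MYC family that binds DNA together with its partner MAX and drives growth and proliferation in the developing sympathetic nervous system. Amplification of MYCN marks high-risk neuroblastoma, and neighbouring genes are often carried along in the amplified segment. MYCNOS is transcribed antisense to MYCN from the opposite strand. DDX1 encodes a DEAD-box RNA helicase of the tRNA ligase complex, and NBAS encodes a subunit of the syntaxin 18 tethering complex, which serves transport from the Golgi to the endoplasmic reticulum and has also been linked to nonsense-mediated decay. The question here was how high these genes stood relative to each other, and whether their RNA changed when Prp19 was knocked down.

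On the human genome build GRCh38 with the GENCODE 29 annotation, NBAS (ENSG00000151779) occupied chr2:15166909-15561330 on the minus strand, with 9 annotated transcripts. DDX1 (ENSG00000079785) followed at chr2:15591178-15631111 on the plus strand, 29.8 kb beyond the end of NBAS. MYCNOS (ENSG00000233718, class antisense) was annotated at chr2:15921037-15942249 on the minus strand with 5 transcripts, and MYCN (ENSG00000134323) at chr2:15940564-15947007 on the plus strand with 2. The interval from the end of DDX1 to the start of MYCN was 309 kb. Among the 4 genes only MYCN and MYCNOS shared exon bases, and this overlap bears on how their reads could be counted.

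MYCNOS began inside MYCN and ran out through its promoter. Of its 2413 exon bases, 98 lay in the coding part of MYCN exon 2, 467 lay in the first intron of MYCN, and 1848 (76.6%) lay upstream of the MYCN start. The library kit does not mark strand, and how the counting treated strand is not given in the sources used here. Reads of unspliced MYCN RNA in that intron and reads of MYCNOS exons there could therefore not be told apart. Nor could reads of mature MYCN RNA in the 98 shared bases be told apart from reads of MYCNOS. Whether reads in the shared bases were counted for MYCNOS, for MYCN or for neither is not known. The levels of MYCNOS carry that uncertainty. The sequences that matter for this overlap are printed 5′ to 3′, each on the strand of the gene named, all in lower case because no part is singled out. The first is the 98-base stretch (chr2:15942152-15942249) that is MYCN coding sequence on one strand and a MYCNOS exon on the other. It encodes part of MYC box I, the conserved segment with the phosphodegron that FBXW7 reads. The second is the 124-base MYCNOS exon (chr2:15940974-15941097) that all 5 MYCNOS transcripts hold, which lies in the first intron of MYCN.
MYCN and MYCNOS shared exon: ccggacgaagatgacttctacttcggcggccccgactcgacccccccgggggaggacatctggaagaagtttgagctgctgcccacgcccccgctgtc
MYCNOS common exon: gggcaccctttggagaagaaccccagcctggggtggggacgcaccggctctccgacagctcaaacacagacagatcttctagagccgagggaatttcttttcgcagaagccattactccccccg

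**Figure D1:**
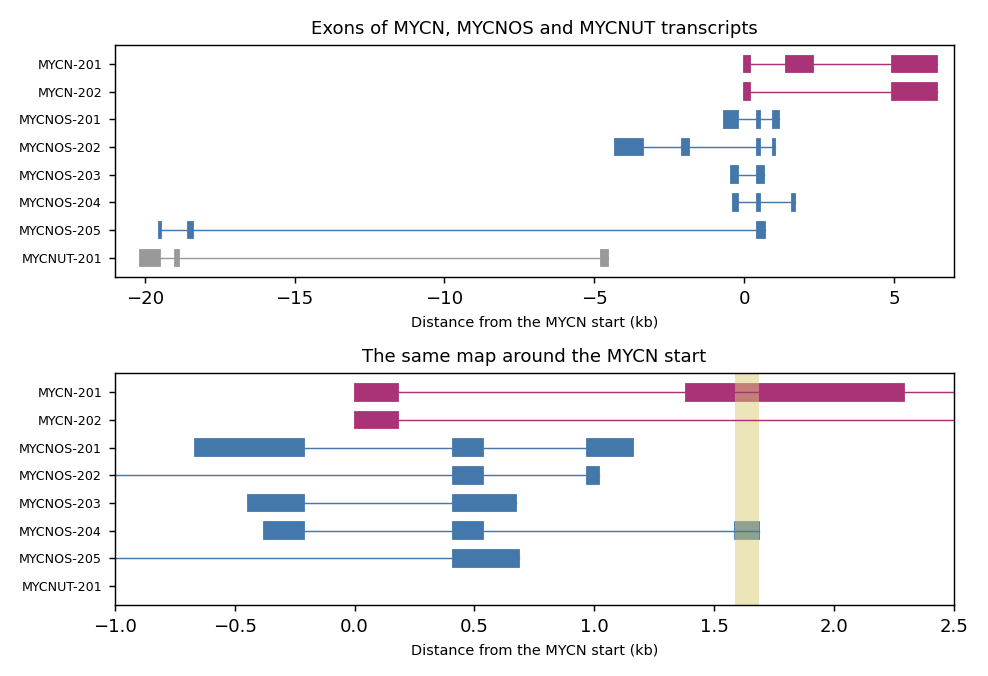
Exons (boxes) of the GENCODE 29 transcripts of MYCN, MYCNOS and MYCNUT by distance from the MYCN start in kb, whole (top) and enlarged around the start (bottom). The shaded 98 bases are the only place where a MYCNOS exon (blue) covers a MYCN exon (purple), and the MYCNOS exons between the first 2 MYCN exons are the 467 bases in the intron.

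The stretch before MYCN was also covered in part by MYCNOS. Of the 250 bases before the RefSeq start of MYCN (chr2:15940300-15940549, plus strand, GRCh38.p14), 52 were MYCNOS exon. In the sequence, the capitals mark GGGCGG, the core of the GC box that factors of the SP family recognise, or its reverse complement, and TTTGGCGC, a sequence of the kind that E2F factors recognise.
MYCN upstream sequence: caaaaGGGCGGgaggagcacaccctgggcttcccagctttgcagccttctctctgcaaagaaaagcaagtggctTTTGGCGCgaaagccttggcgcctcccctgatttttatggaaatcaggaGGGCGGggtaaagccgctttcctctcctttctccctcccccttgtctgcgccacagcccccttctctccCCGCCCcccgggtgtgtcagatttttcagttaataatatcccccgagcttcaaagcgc

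RefSeq gave 5 windows for the 4 genes, each from 250 bases before to 50 after a start, with 2 of them for MYCNOS. The motifs were chosen after this sequence had been seen, and each was searched on both strands. TTTGGCGC was found in the MYCN window and in 0.652% of 35116 RefSeq windows. GGGCGG was found in the MYCN window, in both MYCNOS windows and in 45.0% of all windows. CACGTG, the E-box to which MYC and MAX bind, was in none of the 5 windows and in 7.26% of all. TATAAA was likewise in none of the 5 (11.5% of all), and CCAAT was in 1 MYCNOS window (34.6% of all). The marked motifs do not overlap in the printed sequence, and a match is a run of letters, not a bound site.

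The reads on genes ranged from 19058781 to 24181789 per sample, recovered from the deposited FPKM (fragments per kilobase of exon, scaled between samples). Markers of the noradrenergic neuroblastoma state, such as HAND2 and TH, reached an average of 1 FPKM in 7 of 7 genes and summed to 927 to 1276 FPKM with siNC and 965 to 1334 FPKM with siPrp19. Of the mesenchymal markers 4 of 6 reached 1 FPKM, with sums of 275 to 356 FPKM with siNC and 273 to 336 FPKM with siPrp19, most of it from VIM. FN1, fibronectin, was at 53.1, 67.9 and 28.6 FPKM with siNC and at 39.4, 54.6 and 23.3 FPKM with siPrp19. It was lower in each same-numbered pair and fell by 0.33 on the log2 scale in the voom fit with the replicate block (adjusted p 1.29e-05, limma), but did not pass without the block (adjusted p 0.9999, limma). SNAI2, a transcription factor of the mesenchymal state, had pair values of -0.28, -0.45 and -0.22 and was not in the voom fit. The list did not move as a whole. VIM had pair values of -0.02, 0.04 and 0.05, and COL1A1 had -0.03, -0.26 and 0.01. The markers below 1 FPKM were PRRX1 (0.07, -0.09 and -0.14) and COL1A2 (-0.31, -0.21 and -0.06). The part of these markers in the values that follow was not tested. The leukocyte markers PTPRC and CD68 and the endothelial markers PECAM1 and CDH5 stayed below 1 FPKM, with highest sums of 0.192 and 0.0945 FPKM. The epithelial marker KRT5 was at 0 in all 6 samples, while EPCAM stood at 1.34 to 2.48 FPKM. Replicate 3 stood apart in both groups. NDRG1, a gene repressed by N-Myc, stood at 195, 363 and 23.2 FPKM in siNC replicates 1 to 3 and at 164, 370 and 25.7 FPKM in siPrp19 replicates 1 to 3. DBH, the enzyme that makes noradrenaline, was at 44.2, 30.04 and 3.49 FPKM with siNC and 41.9, 26.7 and 3.94 FPKM with siPrp19. In bulk samples fewer cells in a state and less RNA per cell cannot be told apart. The part of this difference in the values that follow was not tested, and the changes are given without replicate 3 as well.

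PRPF19 itself was lower in every siPrp19 sample. It stood at 53.1, 53.1 and 64.9 FPKM with siNC and at 21.8, 28.5 and 33.6 FPKM with siPrp19, and the groups did not overlap. The siPrp19 mean was 48.99% of the siNC mean, a log2 change of -1.04 ± 0.19 (limma SE, 3 against 3 samples). In the limma fit without a block the adjusted p was 0.9999, and no gene passed there. With a replicate block and limma-voom on the recovered reads, the log2 change was -1.03 (95% interval -1.16 to -0.90) with an adjusted p of 1.23e-12.

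MYCN had by far the highest level at the locus. It stood at 959, 850 and 1167 FPKM in siNC replicates 1 to 3 and at 1215, 801 and 1104 FPKM in siPrp19 replicates 1 to 3. Replicate 2 was the lowest sample in both groups, the highest was replicate 3 with siNC and replicate 1 with siPrp19, and the 2 groups overlapped. The mean was 992 ± 161 FPKM with siNC and 1040 ± 214 FPKM with siPrp19 (SD, n = 3 each). MYCN rested on 38926 to 71815 reads per sample, or 0.195% to 0.322% of all reads on genes, so that counting error was small beside the spread between samples. It ranked between 17th and 34th of 58302 genes in the single samples. Among the 11284 nuclear protein-coding genes that averaged 1 FPKM or more it was 7th, and its mean of 1016 FPKM over all 6 samples was 134-fold their median of 7.57 FPKM.

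MYCNOS was the second transcript of the pair. It was at 66.4, 62.8 and 82.4 FPKM in siNC replicates 1 to 3 and at 86.9, 66.6 and 78.0 FPKM in siPrp19 replicates 1 to 3. As with MYCN, replicate 2 was lowest in both groups, replicate 3 was highest with siNC and replicate 1 with siPrp19. The group means were 70.5 ± 10.4 FPKM with siNC and 77.1 ± 10.2 FPKM with siPrp19 (SD, n = 3 each), from 2670 to 4763 reads per sample. MYCNOS amounted to 6.93%, 7.396% and 7.06% of the MYCN level in the siNC samples and to 7.15%, 8.31% and 7.06% in the siPrp19 samples. The share was thus highest in siPrp19 replicate 2, the sample with the least MYCN, and the other 5 samples lay within 6.93% to 7.396%. The MYCNOS level is per base of all exons of the 5 transcripts together, so it would differ if only the short transcripts were counted. The part of MYCN reads in this level and in the share was not tested.

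MYCNUT, a long noncoding RNA annotated upstream of MYCN and overlapping MYCNOS by 27 exon bases, was at 0 FPKM in all 6 samples. A count of 0 reads allows up to 3 reads, which for this gene corresponds to between 0.116 and 0.164 FPKM, for counting error only.

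DDX1, the helicase gene, was at 71.4, 66.3 and 84.9 FPKM in siNC replicates 1 to 3 and at 70.7, 71.1 and 77.4 FPKM in siPrp19 replicates 1 to 3. Replicate 3 was the highest in each group, and all siPrp19 values lay inside the siNC range. Means were 74.2 ± 9.61 FPKM with siNC and 73.1 ± 3.75 FPKM with siPrp19 (SD, n = 3 each), on 4475 to 7361 reads per sample. NBAS, the tethering subunit, stood at 10.4, 10.2 and 8.39 FPKM with siNC and at 11.02, 10.4 and 8.94 FPKM with siPrp19. Here replicate 3 was the lowest in each group, at 0.816 and 0.835 of the mean of the other two samples. The NBAS means were 9.66 ± 1.10 FPKM with siNC and 10.1 ± 1.07 FPKM with siPrp19 (SD, n = 3 each), on 1485 to 2240 reads per sample. Over the 14462 genes that averaged 1 FPKM or more, replicate 3 was highest in both groups for 30.6% and lowest in both for 27.7%.

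**Figure D2:**
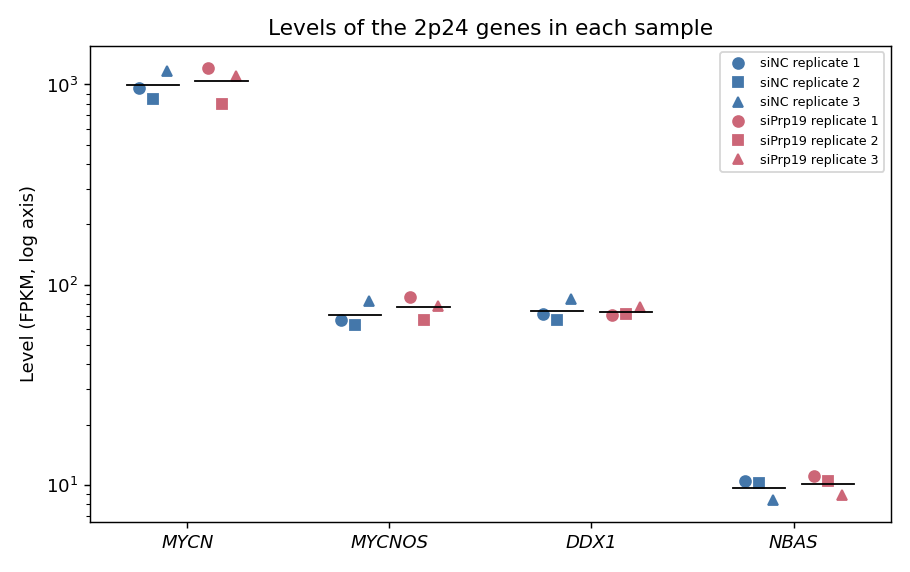
Level in FPKM (log axis) of the 4 genes in each sample, with siNC in blue, siPrp19 in red, a symbol per replicate number and a bar at each group mean. MYCN lies at 801 to 1215 FPKM, MYCNOS and DDX1 overlap between 62.8 and 86.9 FPKM, NBAS lies at 8.39 to 11.02 FPKM, and the groups overlap for every gene.

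On this per-length scale the order of mean levels was MYCN, MYCNOS, DDX1, NBAS. The 3 comparisons that follow were between neighbours in this order, so the same values chose and tested them. MYCN exceeded MYCNOS in 6 of 6 samples by 12.02-fold to 14.4-fold, a mean log2 ratio of 3.77 ± 0.10 (SD, n = 6). A two-sided exact sign-flip permutation test over the samples gave p = 0.0313, the smallest that 6 samples allow, or 0.0469 after Benjamini-Hochberg adjustment over 3 comparisons. That test treats the 6 samples as independent although same-numbered samples deviated together. DDX1 exceeded NBAS in 6 of 6 samples by 6.37-fold to 10.0-fold, a mean log2 ratio of 2.89 ± 0.26 (SD, n = 6), with the same exact p of 0.0313 and adjusted 0.0469. With the same-numbered samples averaged to 3 values, all 3 of the same sign, the exact p was 0.25 for both ratios, the smallest that 3 values allow, so neither passed. MYCNOS and DDX1, by contrast, did not differ beyond their spread. Their log2 ratio was -0.00 ± 0.15 (SD, n = 6), MYCNOS was the higher in 2 of 6 samples, and the exact p was 1. DDX1 amounted to 7.45%, 7.80% and 7.28% of the MYCN level in the siNC samples and to 5.82%, 8.87% and 7.01% in the siPrp19 samples, a wider range with siPrp19 that rests on replicates 1 and 2.

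The variation of each gene over the 6 samples was not large beside that of other genes. The coefficient of variation was 16.9% for MYCN, 13.4% for MYCNOS, 8.90% for DDX1 and 10.1% for NBAS. The median over all 14462 genes was 17.8%, above each of the 4.

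Most genes near MYCN that are not among the 4 were silent or low, as were most genes over the whole genome. Within 2 Mb of the MYCN start, 15 of 44 annotated genes averaged 1 FPKM or more and 19 were at 0 in all 6 samples. Over the genome, 14462 of 58302 genes averaged 1 FPKM or more. Of the 58039 genes matched to the annotation, 20518 were at 0 in all 6 samples. Only 5 of the 11 protein-coding genes in this window reached 1 FPKM, namely NBAS, DDX1 and MYCN together with SMC6 and GEN1. Between DDX1 and MYCNUT the 6 annotated genes were at or near 0, the highest being LINC01804 with a mean of 0.00632 FPKM. On the other side of MYCN, RN7SL104P had a mean of 3.04 FPKM, AC010145.1 of 0.707 FPKM and GACAT3, a long noncoding RNA, of 1.42 FPKM. Inside the NBAS gene AC007738.1 had a mean of 0.0774 FPKM, and AC008278.2, between NBAS and DDX1, had 0.0762 FPKM.

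Farther out the picture was mixed. FAM49A (now CYRIA), a regulator of the WAVE complex and the next protein-coding gene beyond MYCN, was at 0.464 to 0.573 FPKM with siNC and 0.474 to 0.719 FPKM with siPrp19. FAM84A (now LRATD1), on the NBAS side, stayed between 0.373 and 0.567 FPKM over all samples. The neuronal calcium sensor gene VSNL1 was at 0.474 to 1.401 FPKM. SMC6, a subunit of the SMC5/6 genome maintenance complex, stood at 6.52 to 9.70 FPKM, and GEN1, a Holliday junction resolvase, at 2.54 to 6.78 FPKM. TRIB2, a pseudokinase gene, was at 27.9 to 48.1 FPKM, LPIN1, a phosphatidate phosphatase, at 9.98 to 13.2 FPKM, and the retinol dehydrogenase RDH14 at 13.8 to 17.4 FPKM. RAD51AP2, KCNS3, NT5C1B and OSR1 stayed below 1 FPKM in every sample, and MSGN1 was at 0 in all 6.

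**Figure D3:**
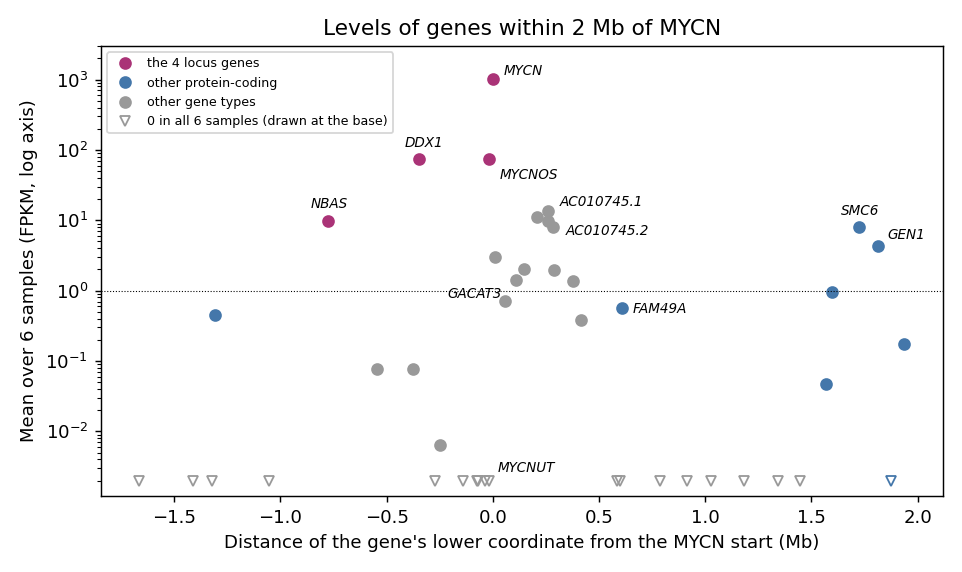
Mean over the 6 samples in FPKM (log axis) of every annotated gene within 2 Mb of the MYCN start, by distance in Mb, with the 4 locus genes in purple, other protein-coding genes in blue, other gene types in grey, genes at 0 in all samples as open triangles at the base, and 1 FPKM as a dotted line. MYCN at 1016 FPKM stands above MYCNOS and DDX1 at about 74 FPKM each, and the next highest gene is AC010745.1 at 13.3 FPKM.

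None of the 4 genes showed a change with siPrp19 that passed the test. In the limma test on log2(FPKM + 0.1), 0 of 14462 genes passed a false discovery rate of 0.05 (0%), with 225 at an unadjusted p under 0.05. With a replicate block, 0 of 14462 passed as well (0%), with 2265 at an unadjusted p under 0.05. With the block and limma-voom on recovered reads, 1045 of 13605 genes passed (7.68%), none of them among the 4. The siNC and siPrp19 values did not overlap for 0 of the 4 genes, against 5.61% of all genes tested.

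MYCN differed by 0.06 ± 0.23 on the log2 scale (limma SE), with a 95% interval from -0.48 to 0.60 and an adjusted p of 0.9999. The pairs of same-numbered samples gave 0.34, -0.08 and -0.08, so the positive mean came from pair 1 alone. Expressed as a fold, the interval ran from 0.715 to 1.52. With the replicate block the 95% interval on the log2 scale was -0.19 to 0.31, and in the voom fit with the block it was -0.04 to 0.19. Without replicate 3 in both groups the value was 0.13 (95% interval -0.49 to 0.75).

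MYCNOS showed 0.13 ± 0.16 (limma SE, 95% interval -0.26 to 0.52, adjusted p 0.9999), from pair values of 0.39, 0.08 and -0.08. In the voom fit with the replicate block the value was 0.14 with a 95% interval of 0.01 to 0.28, and an adjusted p of 0.188 over all genes in limma. Reads in the first MYCN intron, which could be unspliced MYCN RNA, enter these MYCNOS values, and their part was not tested. The same goes for any reads of mature MYCN RNA in the shared exon bases that were counted for MYCNOS. Leaving replicate 3 out of both groups gave 0.24 (95% interval -0.20 to 0.67). DDX1 was at -0.02 ± 0.14 (limma SE, 95% interval -0.34 to 0.31, adjusted p 0.9999), with pair values of -0.01, 0.10 and -0.13. With the replicate block its 95% interval was -0.16 to 0.13. Without replicate 3 in both groups DDX1 turned to 0.04 (95% interval -0.24 to 0.33). For NBAS the value was 0.07 ± 0.14 (limma SE, 95% interval -0.28 to 0.41, adjusted p 0.9999), and the 95% interval with the replicate block was -0.06 to 0.20. NBAS was the only one of the 4 with the same sign in all pairs (0.08, 0.03 and 0.09), which was also true in the upward direction of 19.2% of all genes tested. Without replicate 3 in both groups its value was 0.06 (95% interval -0.26 to 0.37).

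**Figure D4:**
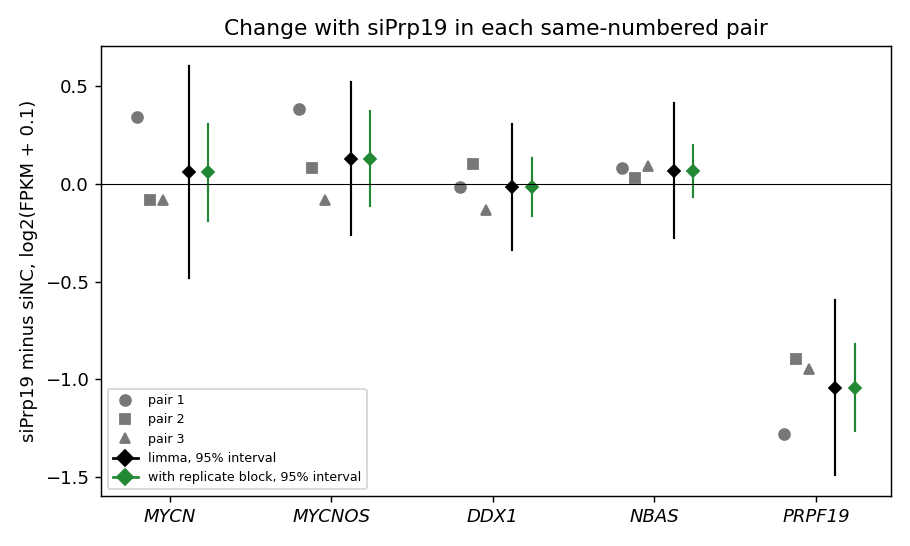
Difference between siPrp19 and siNC in log2(FPKM + 0.1) for the 4 genes and PRPF19, with grey symbols for the 3 same-numbered pairs and diamonds with 95% intervals for limma without (black) and with (green) the replicate block. All 8 intervals of the 4 locus genes include 0, while PRPF19 lies at -1.04 with pair values of -1.28, -0.90 and -0.95.

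The 4 genes were also compared with each other for their change. The within-sample log2 ratio of 2 genes was set against the knockdown for all 6 pairs of genes, with a two-sided exact permutation test of 3 against 3 samples that cannot go below p = 0.1. The largest difference was that of MYCNOS against DDX1, whose log2 ratio was -0.07 ± 0.03 with siNC and 0.07 ± 0.20 with siPrp19 (SD, n = 3 each), a difference of 0.15 with an exact p of 0.3. MYCN against MYCNOS went from 3.81 ± 0.05 to 3.74 ± 0.13 (SD, n = 3 each), a difference of -0.07 with an exact p of 0.6. The remaining 4 differences lay between -0.08 and 0.07 on the log2 scale. After Benjamini-Hochberg adjustment over the 6 pairs the exact p-values were 0.96 or above, and the within-sample ratios of MYCN to DDX1 ranged from 12.8 to 13.7 with siNC and from 11.3 to 17.2 with siPrp19.

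The genes whose levels moved most like each of the 4 over the 6 samples were sought among the 7913 genes averaging 5 FPKM or more, by Pearson's r on log2(FPKM + 0.1). This is a description over 6 libraries that share their replicate differences. For MYCN the nearest were CYB5D2 (r = 0.98), KCNG1 (r = 0.97) and ITGB1BP1 (r = 0.96). MYCNOS came 31st in that order with r = 0.94, while DDX1 had r = 0.61 and NBAS r = -0.36 with MYCN. The part of MYCN reads in the r of MYCNOS was not tested. Nearest to MYCNOS were PPM1L, WDR41 and BOLA3-AS1, all with r = 0.97, and MYCN came 23rd. DDX1 was followed most closely by DHRS4 (r = 1.00, from 4.98 to 7.04 FPKM), PCDH18 and IFT57 (r = 0.99 each), and NBAS by FARSA, RAB3A and BEND4 (r = 1.00 each). DDX1 and NBAS, although next to each other on the chromosome, ran opposite over the samples with r = -0.87.

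N-Myc acts with partner proteins and is turned over by kinases and ubiquitin ligases, and 11 of 11 genes of these kinds were tested. In limma without a block 0 of 11 passed, but so did 0 of all 14462 genes, PRPF19 included. A count of 0 in that fit, here or for the lists below, is therefore no sign that a list was unchanged. The median log2 change was -0.01, against -0.00 over all 14462 genes, and 5 of 11 lay above 0. MAX, the obligate partner, stood at 14.8, 15.3 and 16.2 FPKM with siNC and 15.7, 13.7 and 16.6 FPKM with siPrp19, a log2 change of -0.01 ± 0.12 (limma SE). The highest values were those of FBXW7, the ubiquitin ligase subunit that recognises phosphorylated N-Myc (0.16 ± 0.23), and TRIM32, a further ubiquitin ligase (0.12 ± 0.16). The lowest were CDK1, a mitotic kinase that primes N-Myc for degradation (-0.24 ± 0.11), and AURKA, the kinase that protects N-Myc from it (-0.05 ± 0.13). With the block and voom, 1 of the 9 genes with whole reads passed: CDK1 fell, by 0.23 on the log2 scale with an adjusted p of 0.00896 in limma, from 34.1, 35.0 and 35.7 FPKM to 27.6, 31.0 and 30.4 FPKM.

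Among 18 genes known to be induced by MYC or N-Myc, all tested, 0 passed in limma without a block, 7 lay above 0 and the median log2 change was -0.02. Most positive were ODC1, the first enzyme of polyamine synthesis, with 0.18 ± 0.31 (limma SE), and LDHA, lactate dehydrogenase, with 0.17 ± 0.15. The most negative were MDM2, the ligase for p53, with -0.36 ± 0.18, and TERT, the catalytic subunit of telomerase, with -0.24 ± 0.28. MDM2 and TERT, both lower in each same-numbered pair, did not give whole reads in all 6 samples and were not in the voom fit. Of the 16 genes left there, 2 rose with the block, namely ODC1 by 0.20 (adjusted p 0.0170, limma) and AHCY, which cleaves S-adenosylhomocysteine, by 0.17 (adjusted p 0.0320, limma). ODC1 stood at 43.1, 42.9 and 73.5 FPKM with siNC and at 49.1, 47.1 and 86.1 FPKM with siPrp19, higher in each same-numbered pair while the groups overlapped. AHCY was at 67.1, 59.5 and 65.8 FPKM with siNC and at 75.1, 66.5 and 73.0 FPKM with siPrp19.

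For 7 genes known to be repressed by N-Myc, 0 passed in limma without a block, 3 lay above 0 and the median log2 change was -0.03. With the block and voom 1 rose and 2 fell. NGFR, the p75 neurotrophin receptor, rose by 0.55 (adjusted p 0.000249, limma), from 4.42, 3.11 and 5.34 FPKM with siNC to 6.90, 3.77 and 8.003 FPKM with siPrp19. CDKN1A, the cell cycle inhibitor p21, fell by 0.56 (adjusted p 0.000374, limma), from 5.89, 12.9 and 5.57 FPKM to 3.43, 8.18 and 4.65 FPKM. TGM2, a transglutaminase, fell by 0.58 (adjusted p 0.000546, limma), from 2.42, 2.16 and 1.79 FPKM to 1.64, 1.41 and 1.17 FPKM. NDRG2 was the second most positive with 0.18 ± 0.18 (limma SE), and NDRG1, whose values by sample are given with the depth, had -0.03 ± 1.28.

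Of the 6 genes of the tRNA ligase complex in which DDX1 works, 0 of 6 passed in either of these fits, 2 of 6 lay above 0 and the median log2 change was -0.05. RTCB, its catalytic ligase, stood at 28.2, 28.8 and 33.5 FPKM with siNC and at 23.8, 28.5 and 35.3 FPKM with siPrp19, below DDX1 in all 6 samples. The extremes were ZBTB8OS, or archease, and C2orf49, or ashwin, both with 0.03, and FAM98B with -0.16 and RTRAF with -0.10. Of 8 genes around NBAS, 6 lay above 0 and the median log2 change was 0.05. USE1 (0.20 ± 0.29, limma SE), a SNARE protein, and ZW10 (0.15 ± 0.17), a tethering subunit, stood highest, and SEC22B (-0.21 ± 0.21), a further SNARE protein, and UPF1 (-0.10 ± 0.13), the helicase of nonsense-mediated decay, stood lowest. With the block and voom 1 of 8 passed, SEC22B, which fell by 0.19 (adjusted p 0.0322, limma), from 10.97, 10.5 and 14.9 FPKM to 8.94, 9.51 and 13.1 FPKM. ZW10 and RINT1, the direct complex partners of NBAS, stood at 8.89 to 13.0 FPKM and 5.37 to 8.72 FPKM, on the scale of NBAS itself.

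Of the 19 genes in the list of 2p24 neighbours, the 4 locus genes included, 10 were tested and 0 passed in either fit, with 6 above 0 and a median log2 change of 0.04. GEN1 had the most negative value, -0.20 ± 0.39 (limma SE), with pair values of -0.21, -0.19 and -0.21 and an adjusted p of 0.0677 in the voom fit with the block. Next were RDH14 (-0.13 ± 0.12) and TRIB2 (-0.10 ± 0.26), while LPIN1 (0.09 ± 0.15), SMC6 (0.05 ± 0.20) and GACAT3 (0.03 ± 0.48) were on the positive side. Over these 6 lists, the cell type markers not included, 7 of 56 genes (12.5%) passed with the block and voom, beside the 7.68% of all genes. The 7 were CDK1, ODC1, AHCY, NGFR, CDKN1A, TGM2 and SEC22B, and none of them lies at the MYCN locus.

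**Figure D5:**
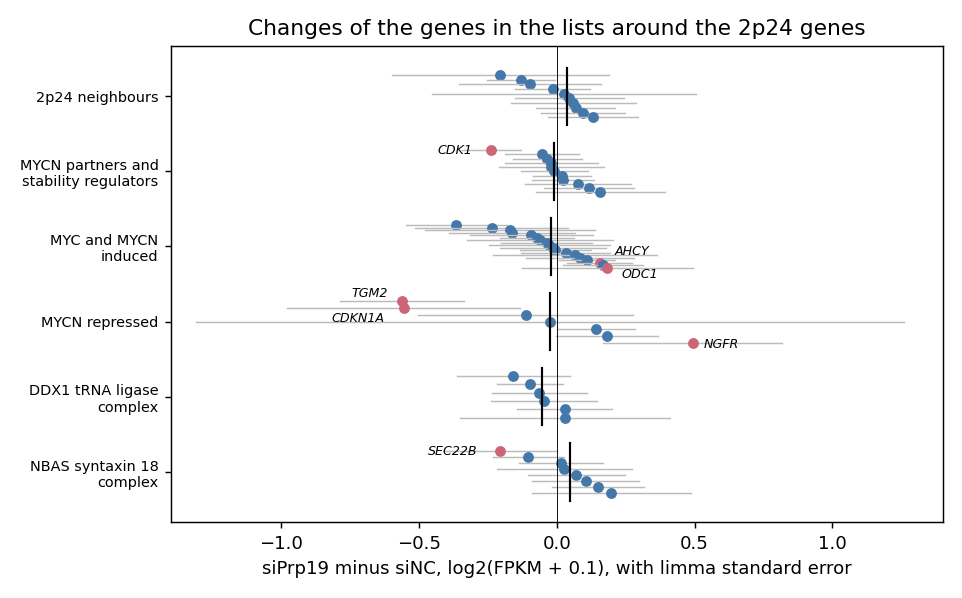
Difference between siPrp19 and siNC in log2(FPKM + 0.1) for each tested gene of the 6 lists, with grey bars for the limma standard error and a black line at each list's median. The 7 genes in red passed a false discovery rate of 0.05 only in the voom fit with the replicate block, and the medians of the lists lie between -0.05 and 0.05.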

How the data were processed

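Transcriptomes of 3 siNC and 3 siPrp19 samples of the SK-N-BE(2) line were grouped by the labels. The authors deposited 1 table of FPKM values per sample. HISAT2 2.0.5, featureCounts 1.5.0-p3 and hg38 are named in the submitters' processing notes, while the annotation release, the strand setting and the FPKM formula are not given in the sources used here, and DESeq2 served for the study's own comparison. Of 58302 identifiers, 58039 were matched to GENCODE 29 (GRCh38). FPKM times exon length gave whole reads (tolerance 0.05) in all 6 samples for 95.9% of 37521 matched genes above 0, and for all 4 locus genes.

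The 14462 genes that averaged 1 FPKM or more were tested on log2(FPKM + 0.1) with limma 3.58.1 in R 4.3.3 (trended eBayes, Benjamini-Hochberg adjustment). This scale understates changes of low genes. The fit was tried on simulated data with independent noise and no differences between replicates. That trial does not show how the fit performs with the replicate differences seen here. Exact permutation tests used Python 3.11.15. Same-numbered samples deviated together from their group means (r = 0.38, 0.57 and 0.64 over genes, against at most 0.05 for other pairs). Centring on group means in part forces the lower r of the other pairs. The replicate numbers were taken to pair the samples, though the labels do not say what same-numbered samples share. The voom fits used 13605 genes with whole reads. Alternatives were another pseudocount, filter, scaling (TPM, quantile) and moderation, the block, voom, and samples left out. Median-of-ratios factors of the deposited values were equal in all samples, so these values were already on a median-of-ratios scale.

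The 4 genes and the lists were chosen with earlier results of these data known. Named were the 4 genes, PRPF19, the 2p24 neighbours, from each other list the genes at a false discovery rate under 0.05 or else the 2 highest and 2 lowest changes, and the 3 nearest genes to each locus gene. MAX, NDRG1, NDRG2, DBH, RTCB, RINT1, AHCY, FN1 and SNAI2 were added after their values were seen. So were the pair values of the other mesenchymal markers and the noncoding genes downstream of GACAT3. A further noradrenergic marker is not reported here. RefSeq promoter windows matched all 4 genes. The SK-N-AS line was not analysed here.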

Additional observations from a re-analysis of the deposited data

How the results depend on the processing

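None of the 4 locus genes passed a false discovery rate of 0.05 in any of 17 alternatives in limma, and the adjusted p-values ranged from 0.476 for MYCN, 0.188 for MYCNOS, 0.912 for DDX1 and 0.454 for NBAS up to 1. The lowest of each came from the voom fit with the replicate block, except that of DDX1. With samples left out, the log2 change ranged from -0.063 to 0.24 for MYCN, 0.04 to 0.25 for MYCNOS, -0.092 to 0.086 for DDX1 and -0.029 to 0.15 for NBAS. MYCN turned negative without siNC replicate 2 (-0.046) or siPrp19 replicate 1 (-0.063), NBAS without siNC replicate 3 (-0.029), and DDX1 turned positive without siNC replicate 3 (0.086), siPrp19 replicate 1 (0.0080), siPrp19 replicate 2 (0.0040) or replicate 3 of both groups (0.044). The last setting was chosen after seeing the data. These values are all within the intervals given and no direction is called.

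The number of genes at a false discovery rate under 0.05 was 0 in limma and 0 with each sample left out, 124 with the replicate block and a mean of at least 5 FPKM, 1045 with the replicate block and voom, and 1 without trend and with robust moderation. Of the genes in the lists, 0 passed in limma and 7 with the replicate block and voom. PRPF19 passed only in the 2 fits with the block and a stricter filter or voom (-1.04 and -1.03). The replicate block changed no call on the siPrp19 change of a locus gene.

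With the replicate block for levels (means of same-numbered samples, added after seeing the data) the log2 ratios stayed at 3.77 for MYCN over MYCNOS and 2.89 for DDX1 over NBAS, with an exact p of 0.25, or 0.375 adjusted. In the siNC samples alone the log2 ratios were 3.81 for MYCN over MYCNOS and 2.93 for DDX1 over NBAS, where 3 samples cannot pass an exact test. With single samples left out they were 3.76 to 3.81 and 2.80 to 2.93, in 5 samples that cannot pass either, and -0.062 to 0.018 for MYCNOS over DDX1, which took either sign. Differences of change with 1 replicate number left out ranged from -0.066 to 0.20 for MYCN minus DDX1, -0.14 to 0.072 for MYCN minus NBAS and -0.059 to 0.18 for MYCNOS minus NBAS. The cause was not tested.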

Other observations

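Downstream of MYCN, with starts 262 to 376 kb from its own, a run of noncoding genes was expressed and stood higher in replicate 3 of both groups. They were picked after their values were seen. Replicate 3 was highest in both groups for 30.6% of the 14462 genes tested. The same held for GACAT3, AC130710.1, AC174048.1 and RF00561, which lie between MYCN and this run. It did not hold for RN7SL104P and AC010145.1, which lie closer to MYCN. RN7SL104P was lowest in replicate 3 of both groups. It was at 3.60, 2.52 and 1.21 FPKM with siNC and at 4.36, 4.92 and 1.65 FPKM with siPrp19. AC010145.1 was at 0.622, 0.330 and 0.588 FPKM with siNC and at 0.768, 0.373 and 1.56 FPKM with siPrp19. AC010745.2, a long intergenic RNA, stood at 4.75, 3.72 and 16.5 FPKM in siNC replicates 1 to 3 and at 5.25, 3.38 and 14.1 FPKM in siPrp19 replicates 1 to 3, on 263 to 1401 reads. Replicate 3 was thus 3.88-fold the mean of the other two samples with siNC and 3.26-fold with siPrp19. AC010745.1 stood at 6.77, 8.91 and 23.7 FPKM with siNC and at 8.36, 10.8 and 21.5 FPKM with siPrp19, a ratio of 3.03 and 2.24. AC010745.3 and AC010745.4, at 1.97 and 1.37 FPKM on average, were also highest in replicate 3 of each group, on at most 48 reads. In MYCN itself the same ratio was 1.29 with siNC and 1.10 with siPrp19. It was 1.27 and 1.02 in MYCNOS, 1.23 and 1.09 in DDX1, and 0.816 and 0.835 in NBAS. None of the RNAs of this run passed the test between siPrp19 and siNC in limma. The log2 changes were -0.07 for AC010745.2 and 0.14 for AC010745.1, with adjusted p-values of 0.9999.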
